A study of Mus musculus with 4 samples.

Results

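The genes described here are 10 genes by which macrophages and other leukocytes handle iron and heme: *Slc48a1*, *Hmox1*, *Blvrb*, *Tfrc*, *Slc11a1*, *Slc11a2*, *Fth1*, *Ftl1*, *Ncoa4*, and *Slc40a1*. They were picked by gene symbol, and all 10 were found once among the 55401 genes of the deposited tables. RNA came from CD45+ leukocytes sorted from the dura mater, the outermost membrane around the brain, of wild-type male C57BL/6J mice. The mice had received 2 μl of an adeno-associated virus (AAV) at 4 wk of age, injected into the cisterna magna, a pool of cerebrospinal fluid below the cerebellum. The AAV-mVEGF-C vector carried full-length mouse VEGF-C, a growth factor of lymphatic vessels, and AAV-CTRL carried a soluble part of its receptor VEGFR-3 that does not bind VEGF-C, joined to an immunoglobulin tail. Each group had 2 libraries, numbered 1 and 2 after the experiments named in the sample labels, and each library held cells pooled from 10 to 12 mice. Every sorted leukocyte entered the pool, so none of the values below belongs to macrophages alone, and fewer cells of a type cannot be told apart from less RNA per cell.

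Macrophages take up iron in several ways. Transferrin-bound iron enters through the transferrin receptor, while the iron of engulfed red blood cells is freed when heme oxygenase opens the heme ring, a step that also yields biliverdin and carbon monoxide. Iron that is not needed at once is stored inside ferritin, a shell of heavy and light subunits, or leaves the cell through ferroportin, the only known iron exporter. Border-associated macrophages of the dura lie along blood vessels, where blood-borne iron and heme can reach them.

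Much of this control acts on the mRNA. Iron regulatory proteins bind a short hairpin, the iron-responsive element: in the 5′ UTR it blocks translation when iron is scarce, and in the 3′ UTR it protects the mRNA from decay. The hairpins are shown because they link 4 of the 10 genes. Control of translation through the 5′ UTR cannot be seen in RNA levels, whereas protection from decay through the 3′ UTR can change them. The coding transcripts of GENCODE M21 (GRCm38) were searched on the sense strand for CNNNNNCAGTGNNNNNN, in which N at the end of the loop was any base but G and the 5 bases on either side of the loop could pair (G with T included). A match in a UTR was found in 123 of 21901 protein-coding genes (0.562%) and in 4 of the 10 genes described here. The loop is in capitals.
*Fth1*, 5′ UTR, chr19:9982735-9982757, plus strand: ctgcttcaaCAGTGCttgaacgg
*Ftl1*, 5′ UTR, chr7:45459782-45459804, minus strand: ttgcttcaaCAGTGTttgaacgg
*Slc40a1*, 5′ UTR, chr1:45925468-45925490, minus strand: cttcagctaCAGTGTtagctaag
*Tfrc*, 3′ UTR, chr16:32631222-32631244, plus strand: tatcggaagCAGTGCcttccata
*Tfrc*, 3′ UTR, chr16:32631601-32631623, plus strand: tatcgggagCAGTGTcttccata
*Tfrc*, 3′ UTR, chr16:32631666-32631688, plus strand: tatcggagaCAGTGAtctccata
*Tfrc*, 3′ UTR, chr16:32631713-32631735, plus strand: tatcgggaaCAGTGTttcccata

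*Tfrc* thus held 4 matches, all within 1 annotated 3′ UTR, while each of the other 3 genes held 1 match in the 5′ UTR. In *Slc40a1* the match lay in 1 of 4 coding transcripts, and in *Fth1* in 4 of 5. No match to these letters was found in the UTRs of the other 6 genes, *Slc11a2* included. A match is a sequence description and was not measured as a binding site here.

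The libraries held 32520709 to 46409700 reads assigned to genes. AAV-CTRL 1 stood apart: it was the largest library, yet 20990 genes were detected in it and 29221 to 37512 in the others, and its log2 CPM (counts per 1000000 reads, with the library total multiplied by its TMM scaling factor, here 0.964 to 1.03) correlated across genes at r = 0.925 to 0.934 with the other libraries, which correlated at 0.968 to 0.973 with one another. *Ptprc*, which encodes CD45, was at 946 to 1151 CPM. *Vegfc* itself had 4.65 and 3.08 CPM in the controls and 1.66 and 1.86 CPM after AAV-mVEGF-C, and edgeR put the log2 fold change at −1.13 (standard error 0.45, with an adjusted p of 0.999). All 16 macrophage markers were detected, with a summed level of 3466 to 6409 CPM, and so were those of other cells: the 10 neutrophil markers summed to 9809 to 21248 CPM and the 6 fibroblast markers to 354 to 1042 CPM.

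Ferritin dominated the 10 genes. In TPM, which scales transcripts to a total of 1000000 and corrects for length, *Fth1* ranged from 975 to 1299 over the 4 libraries and *Ftl1* from 479 to 735, and in each library both stood above 99.4% or more of the genes with a TPM above 0. The other 8 genes together reached 104 to 150.1 TPM. Next came *Ncoa4* (23.6 to 44.1 TPM) and *Slc11a1* (25.9 to 33.0 TPM), whose ranges overlapped each other. *Hmox1* (10.2 to 20.2 TPM), *Slc48a1* (10.6 to 21.3), *Blvrb* (6.95 to 23.2), *Tfrc* (10.1 to 14.7), and *Slc40a1* (6.91 to 11.1) formed a middle group in which each gene overlapped its neighbors in order of mean level. *Slc11a2* was lowest in all 4 libraries (1.68 to 6.03 TPM) and did not overlap *Slc40a1* above it.

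**Figure D1:**
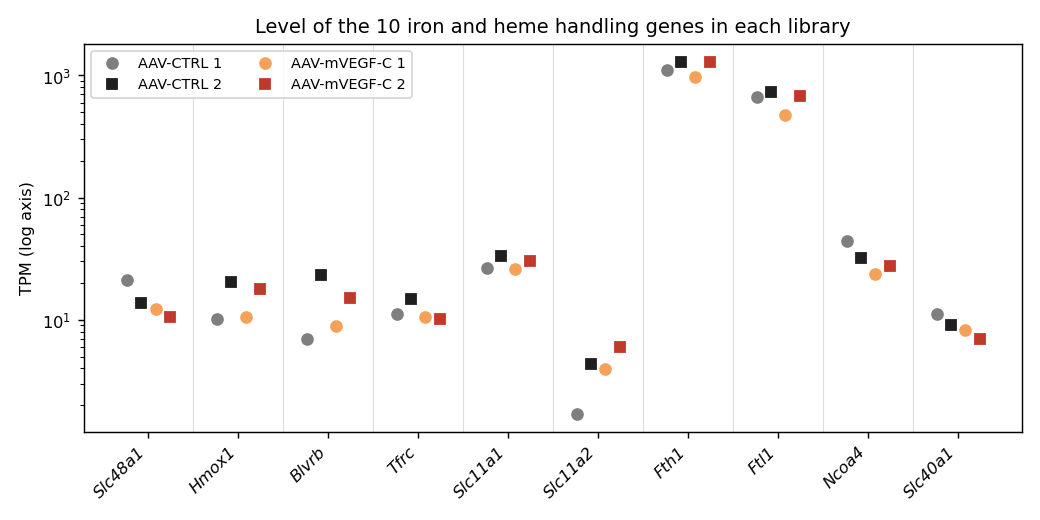
TPM (log axis) of the 10 genes in the 4 libraries, ordered by role, with grey and black points for AAV-CTRL 1 and 2 and orange and red points for AAV-mVEGF-C 1 and 2. *Fth1* and *Ftl1* lie far above the rest, *Slc11a2* lies lowest, and for *Hmox1* and *Blvrb* the libraries numbered 2 (squares) lie above those numbered 1 (circles) in both groups.

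No difference between AAV-mVEGF-C and AAV-CTRL in any of the 10 genes passed the test. All 10 were among the 19806 genes tested with edgeR's quasi-likelihood test, and all had an adjusted p of 0.999 after Benjamini-Hochberg adjustment over those genes. Of all tested genes, 0% had an adjusted p under 0.05, and 2.64% had an unadjusted p under 0.05, against 0 of the 10. DESeq2 and limma-voom also gave 0 of the 10 at an adjusted and at an unadjusted p under 0.05, while DESeq2 called 0.389% of the 19788 genes to which it gave an adjusted p, and 2.1% of all 40674 genes it fitted had an unadjusted p under 0.05. With limma-voom, 0 of the 19806 genes had an adjusted p under 0.05, and 3.44% had an unadjusted p under 0.05. The log2 fold changes ran from −0.39 for *Tfrc* to 0.13 for *Slc11a2*, with 6 below and 4 above 0 and a median of −0.11, beside a median of 0.0034 and 49.6% below 0 over all tested genes. In TPM 9 of the 10 were below 0, where the median of all genes was −0.13 on log2(TPM + 1), −0.14 on log2(TPM + 0.1), and 0.013 on log2(TPM + 1) without a filter on low values. The CPM of the groups did not overlap for 1 gene, *Tfrc*, where 31.9% of all tested genes did not overlap (16.8% higher and 15.2% lower). With the TMM factors left out it was 3 genes (*Slc48a1*, *Tfrc*, and *Ncoa4*), all lower, where 32.1% of all tested genes did not overlap and 16.7% were lower. Without AAV-CTRL 1 it was 3 genes (*Blvrb*, *Tfrc*, and *Slc11a2*), all lower, where 66.9% of all tested genes did not overlap and 34.9% were lower. The 10 genes together took 0.217% (95% Wilson interval, 0.215 to 0.218) and 0.255% (0.254 to 0.257) of the reads in AAV-CTRL 1 and 2, and 0.208% (0.206 to 0.209) and 0.262% (0.260 to 0.263) in AAV-mVEGF-C 1 and 2. The intervals treat reads as independent, which PCR copies are not, so they can understate counting error and leave out the spread between pools. The means, 0.236% ± 0.0273 and 0.235% ± 0.0382 (SD, n = 2), differed by less than the spread within either group (exact two-sided permutation test, p = 1, where 0.333 is the smallest p that 2 libraries against 2 allow).

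**Figure D2:**
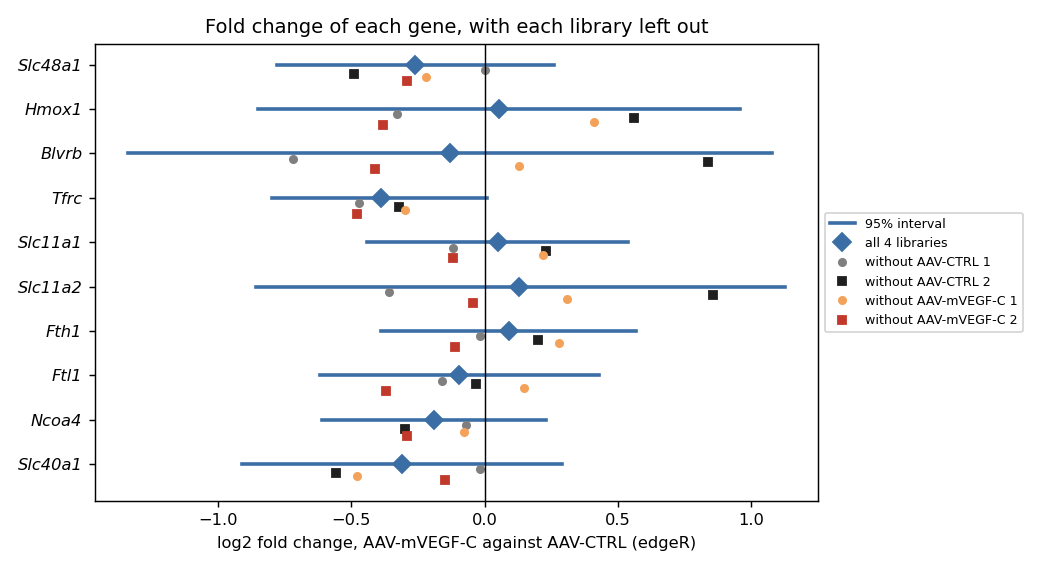
log2 fold change of each gene from edgeR (blue diamond, horizontal axis) with its 95% interval (line), and the same value with each library left out in turn (small points). Every interval includes 0, that of *Tfrc* ending at 0.011, and *Blvrb* moves from −0.72 without AAV-CTRL 1 to 0.84 without AAV-CTRL 2.

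Heme handling came first in the order of roles. *Slc48a1*, also called HRG1, carries heme out of the phagolysosome (ENSMUSG00000081534.3; GRCm38 chromosome 15, 97778520 to 97792692, plus strand). Libraries 1 and 2 had 56.4 and 39.5 CPM in AAV-CTRL, against 39.2 and 41.0 CPM in AAV-mVEGF-C. AAV-CTRL 1 was high and the other libraries lay close together, so the groups overlapped. The log2 fold change was −0.26 (95% interval, −0.78 to 0.26) and became 0.0017 without AAV-CTRL 1. *Hdac7*, on the opposite strand, overlaps this gene and had 1698 to 2059 reads against 1298 to 2523 for *Slc48a1*. Whether reads were counted by strand is not given in the sources used here.

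*Hmox1* encodes the inducible heme oxygenase, which opens the heme ring and is switched on by heme and oxidative stress (ENSMUSG00000005413.8; chromosome 8, 75093621 to 75100589, plus strand). Its level was 20.7 and 37.8 CPM in AAV-CTRL 1 and 2, and 22.3 and 38.6 CPM in AAV-mVEGF-C 1 and 2. The same-numbered libraries of the groups were nearly alike, at log2 differences of 0.10 in experiment 1 and 0.028 in experiment 2, while within a group library 2 exceeded library 1 by 1.82-fold in AAV-CTRL and 1.73-fold in AAV-mVEGF-C. The log2 fold change was 0.056 (95% interval, −0.85 to 0.96), which leaves room for a wide range of differences in either direction. The sign was negative in TPM, without AAV-CTRL 1, and without AAV-mVEGF-C 2.

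*Blvrb* encodes biliverdin reductase B, an enzyme that reduces biliverdin and flavins (ENSMUSG00000040466.16; chromosome 7, 27447978 to 27466144, plus strand). It was at 8.79 and 25.4 CPM in the controls and at 12.7 and 18.5 CPM in AAV-mVEGF-C. Both AAV-mVEGF-C libraries lay between the controls, which differed 2.88-fold, the widest gap between controls among the 10 genes. The log2 fold change of −0.13 (95% interval, −1.34 to 1.08) therefore depended on which control was kept, at 0.84 without AAV-CTRL 2 and −0.72 without AAV-CTRL 1.

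Iron entry and release from endosomes were represented by 3 genes. *Tfrc*, the transferrin receptor whose mRNA carries the 3′ UTR hairpins shown above (ENSMUSG00000022797.16; chromosome 16, 32608920 to 32632794, plus strand), had the lowest unadjusted p of the 10 genes in edgeR. It was at 49.7 and 54.0 CPM in the controls and at 36.9 and 41.9 CPM in AAV-mVEGF-C, with both AAV-mVEGF-C libraries below both controls. The means were 51.8 ± 3.07 and 39.4 ± 3.55 CPM (SD, n = 2), which is −0.39 on the log2 scale (standard error 0.17, 95% interval −0.80 to 0.011, unadjusted p = 0.0547 and adjusted p = 0.999 from edgeR). The log2 differences were −0.42 in experiment 1 and −0.36 in experiment 2, and leaving out single libraries gave −0.48 to −0.30. Among all tested genes, 15.2% had both AAV-mVEGF-C libraries below both controls. In TPM *Tfrc* was at 11.1 and 14.7 in the controls and at 10.5 and 10.1 in AAV-mVEGF-C. On log2(TPM + 1) limma gave −0.29 for *Tfrc* (unadjusted p = 0.226). The lowest unadjusted p of the 10 genes in that limma fit was 0.0708, for *Ncoa4*. Erythroid precursors and dividing cells are known for high transferrin receptor. The 10 erythroid markers tested summed to 127 and 162 CPM in the controls and to 32.6 and 58.0 CPM in AAV-mVEGF-C, and the CPM of 7 of them did not overlap between the groups, all lower in AAV-mVEGF-C. The log2 fold change was below 0 in 8 of these erythroid markers and above 0 in 2, and 2 of the 10 were under 1 TPM in every library. The 6 markers of dividing cells summed to 1464 and 940 CPM in the controls and to 1246 and 1063 CPM in AAV-mVEGF-C, and none of them separated the groups. The part of either cell type in the *Tfrc* values was not tested.

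*Slc11a1* encodes NRAMP1, which pumps metal ions out of the phagosome of macrophages and neutrophils (ENSMUSG00000026177.11; chromosome 1, 74375195 to 74386062, plus strand). C57BL/6 mice are known to carry a loss-of-function allele of it, so its mRNA says little about transport in these mice. It was at 53.3 and 66.4 CPM in the controls and at 54.6 and 69.3 CPM in AAV-mVEGF-C, again with library 2 above library 1 in both groups. The log2 fold change was 0.050 (95% interval, −0.44 to 0.54), and the differences within experiments 1 and 2 were 0.035 and 0.060.

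*Slc11a2* encodes DMT1, the proton-coupled importer that moves ferrous iron out of the endosome (ENSMUSG00000023030.16; chromosome 15, 100387898 to 100425072, minus strand). It was at 8.34 and 19.0 CPM in the controls and at 13.2 and 16.8 CPM in AAV-mVEGF-C. As with *Blvrb*, the AAV-mVEGF-C libraries fell between the controls, which differed 2.28-fold. The log2 fold change was 0.13 (95% interval, −0.86 to 1.13), and 0.86 without AAV-CTRL 2 against −0.36 without AAV-CTRL 1.

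This gene was also the one whose value depended most on the unit. In TPM it was at 1.68 and 4.37 in AAV-CTRL and at 3.94 and 6.03 in AAV-mVEGF-C, and limma gave 0.64 on log2(TPM + 1), with or without a filter, and 0.82 on log2(TPM + 0.1). The reads that stand behind 1 TPM grow with the transcript length to which the authors' program assigned the reads. Set to 1 for the median gene of each library, reads per TPM of *Slc11a2* were 1.80 and 1.74 in AAV-CTRL and 1.15 and 0.971 in AAV-mVEGF-C. The log2 difference of −0.74 (p = 0.333 in an exact permutation test, two-sided, which cannot give less) was lower than in all but 0.107% of the 12123 genes with at least 1 TPM in every library, of which 13.6% were lower in both AAV-mVEGF-C libraries than in both controls. Genes such as *Slc11a2* are known to have mRNA forms with different 3′ ends, some with and some without an iron-responsive element. Gene-level values do not show which forms were present, and the gene had only 373 to 655 reads per library. *Tfrc* was also lower in reads per TPM, by −0.22, and *Ncoa4* was higher, by 0.22, without overlap of the groups, where 21.7% of the 12123 genes were higher without overlap.

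**Figure D3:**
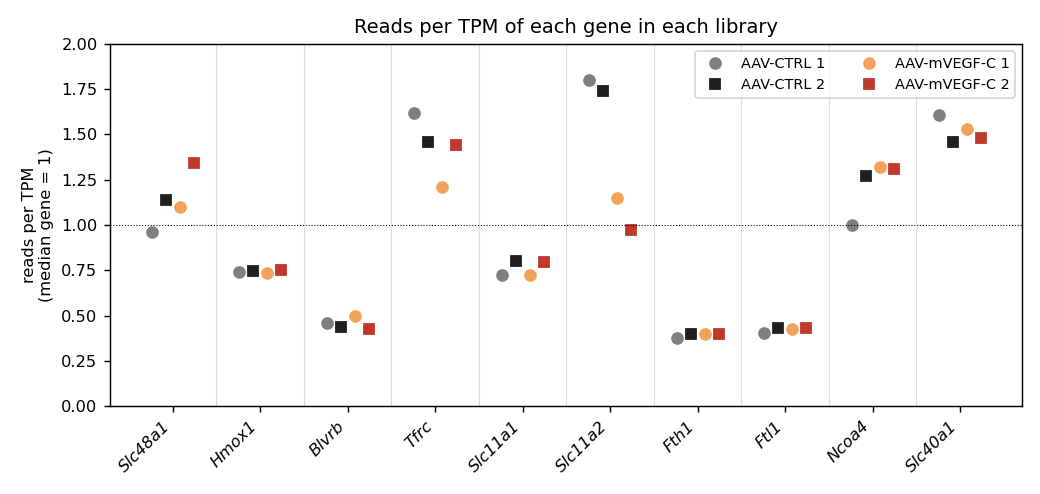
Reads per TPM of each gene (vertical axis, relative to the median gene of the library, dotted line) in AAV-CTRL (grey, black) and AAV-mVEGF-C (orange, red). *Slc11a2* shows the widest gap between the groups, from 1.80 and 1.74 down to 1.15 and 0.971, while *Hmox1*, *Fth1*, and *Ftl1* hardly move.

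The ferritin genes differed little between the groups. *Fth1*, the heavy subunit with ferroxidase activity (ENSMUSG00000024661.7; chromosome 19, 9980598 to 9985098, plus strand), was at 1141 and 1306 CPM in the controls and at 1127 and 1479 CPM in AAV-mVEGF-C. The groups overlapped, with library 2 the higher in each, and the log2 fold change was 0.091 (95% interval, −0.39 to 0.57). *Ftl1*, the light subunit that helps form the iron core (ENSMUSG00000050708.16; chromosome 7, 45457944 to 45459884, minus strand), was at 740 and 792 CPM in the controls and at 589 and 845 CPM in AAV-mVEGF-C. Its 2 AAV-mVEGF-C libraries were the lowest and the highest of the 4, and the log2 fold change was −0.095 (95% interval, −0.62 to 0.43). *Fth1* turned negative in TPM and *Ftl1* turned positive without AAV-mVEGF-C 1, so neither direction held.

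The balance between the subunits varied less than either gene. *Fth1* exceeded *Ftl1* by 1.67 and 1.77 times in TPM in AAV-CTRL 1 and 2, and by 2.03 and 1.89 times in AAV-mVEGF-C 1 and 2. Both AAV-mVEGF-C ratios were above both control ratios, with means of 1.96 ± 0.102 and 1.72 ± 0.0704 (SD, n = 2). The log2 ratios differed by 0.19 (p = 0.333 in an exact permutation test, two-sided, which cannot give less). Ferritin has many processed copies: *Ftl1-ps1* alone was given 2377 to 2924 reads per library, so reads could have been divided between *Ftl1* and its copies. With the genes named after each subunit summed, the difference was 0.17.

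**Figure D4:**
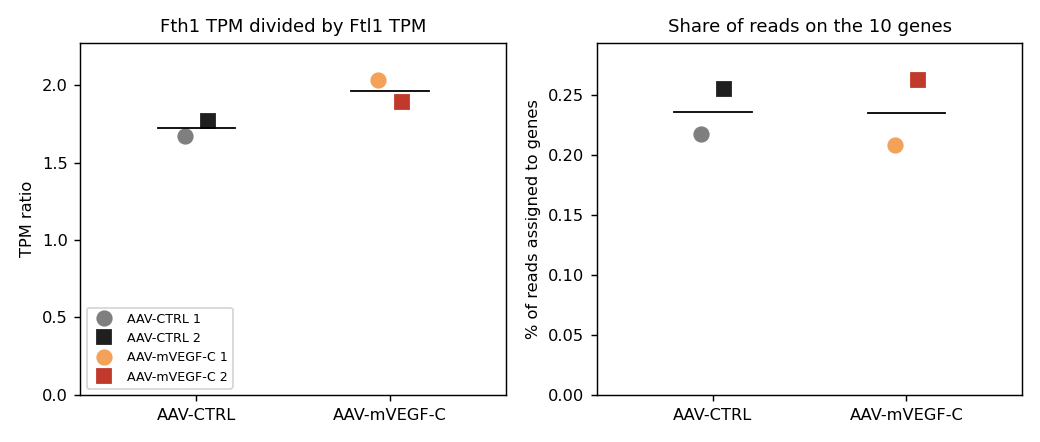
Left, *Fth1* TPM divided by *Ftl1* TPM, and right, percent of reads on the 10 genes, for the 2 libraries of each group (points) with the group mean (line) and axes starting at 0. The ratio is 1.67 and 1.77 in AAV-CTRL and 2.03 and 1.89 in AAV-mVEGF-C, without overlap, whereas the shares of reads overlap.

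*Ncoa4* encodes the receptor that delivers ferritin to lysosomes, where its iron is released (ENSMUSG00000056234.15; chromosome 14, 32159865 to 32179855, plus strand). It was at 122 and 102 CPM in the controls and at 90.8 and 105 CPM in AAV-mVEGF-C. AAV-CTRL 1 was the highest and AAV-mVEGF-C 1 the lowest, and the libraries numbered 2 were nearly equal. The log2 fold change was −0.19 (95% interval, −0.61 to 0.23), and it was −0.54 to −0.18 over the alternatives with all 4 libraries. It was closer to 0 without AAV-CTRL 1 (−0.069) and without AAV-mVEGF-C 1 (−0.079), and −0.30 without AAV-CTRL 2 and −0.29 without AAV-mVEGF-C 2.

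*Slc40a1* encodes ferroportin, the iron exporter (ENSMUSG00000025993.10; chromosome 1, 45908068 to 45926523, minus strand). It was at 49.3 and 33.3 CPM in the controls and at 37.0 and 29.5 CPM in AAV-mVEGF-C. The highest value was a control and the lowest an AAV-mVEGF-C library, but the ranges overlapped. The log2 fold change was −0.31 (standard error 0.25, 95% interval −0.91 to 0.29), and −0.018 without AAV-CTRL 1. In TPM, in which *Slc40a1* was at 11.1 and 9.06 in AAV-CTRL and at 8.32 and 6.91 in AAV-mVEGF-C, the groups did not overlap. The same held in TPM for *Slc48a1*, *Tfrc*, and *Ncoa4*, all lower in AAV-mVEGF-C, while 37.4% of all tested genes did not overlap on that scale and 28.5% were lower.

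Several of these genes followed the experiment number instead. In CPM, 6 of the 10 (*Hmox1*, *Blvrb*, *Slc11a1*, *Slc11a2*, *Fth1*, and *Ftl1*) were higher in both libraries numbered 2 than in both libraries numbered 1, and *Slc40a1* was lower, so that 7 did not overlap between experiments. Of all tested genes, 34.3% did not overlap, 18.8% being higher and 15.4% lower in the libraries numbered 2. All 16 macrophage markers were also higher in both libraries numbered 2, summing to 4207 and 3466 CPM in experiment 1 and to 6409 and 5190 CPM in experiment 2, in AAV-CTRL and AAV-mVEGF-C. *Slc40a1*, by contrast, went against the macrophage markers. The columns of the deposited tables number the libraries differently, so it is not settled that same-numbered pools were handled together. None of the macrophage markers separated AAV-mVEGF-C from AAV-CTRL, and their mean log2 CPM was 6.45 and 7.10 in AAV-CTRL and 6.33 and 6.88 in AAV-mVEGF-C. Set against that mean, the median of the 10 genes was −0.77 and −1.57 in AAV-CTRL and −1.08 and −1.50 in AAV-mVEGF-C, a difference of −0.12 (exact two-sided permutation test, p = 1) that was smaller than the spread within either group. Its sign depended on the libraries kept: it was 0.28 without AAV-CTRL 1, −0.52 without AAV-CTRL 2, −0.33 without AAV-mVEGF-C 1, and 0.089 without AAV-mVEGF-C 2. The part of macrophage content in these values was not tested.

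The other genes of iron and heme metabolism were taken from a list of 55, of which 48 were expressed highly enough to be tested. None passed the test (adjusted p = 0.999 for each from edgeR's quasi-likelihood test), and 1 of the 48 had an unadjusted p under 0.05, a share of 2.08% beside 2.64% of all tested genes. Their log2 fold changes were below 0 in 36 and above 0 in 12, with a median of −0.15. The groups did not overlap for 16 of the 48, or 33.3%, beside 31.9% of all tested genes. Of these, 13 were lower, a share of 27.1% beside 15.2% of all tested genes, and 3 were higher, where 16.8% of all tested genes were.

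The gene with an unadjusted p under 0.05 was *Alas2*, the erythroid form of the first enzyme of heme synthesis, which is also one of the erythroid markers. It was at 3.67 and 6.80 CPM in the controls and at 1.05 and 1.55 CPM in AAV-mVEGF-C, which is −2.01 on the log2 scale (standard error 0.50, unadjusted p = 0.00678 and adjusted p = 0.999 from edgeR). This was the most negative value of the list. The ubiquitous form, *Alas1*, was at 126 and 67.2 CPM in the controls and at 94.1 and 83.4 CPM in AAV-mVEGF-C, with a log2 fold change of −0.13, and over the 9 genes of heme synthesis the median was −0.14.

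Of the 5 genes of heme breakdown and export outside the 10, 4 were lower and 1 was higher without overlap of the groups, where 15.2% and 16.8% of all tested genes were. With 5 genes, *Flvcr2* at only 0.205 to 0.494 CPM among them, and no adjusted p under 0.999, these counts are a description. *Hmox2*, the constitutive heme oxygenase, was at 74.5 and 56.1 CPM in the controls and at 46.3 and 54.2 CPM in AAV-mVEGF-C (difference as log2 fold change, −0.38, standard error 0.20). *Blvra*, the main reductase of biliverdin, was at 24.1 and 17.4 CPM in the controls and at 13.8 and 15.6 CPM in AAV-mVEGF-C (−0.50, standard error 0.24). *Flvcr1*, described as a heme exporter, had the opposite sign, at 18.5 and 21.3 CPM in the controls and 26.9 and 26.8 CPM in AAV-mVEGF-C (0.43, standard error 0.18, adjusted p = 0.999 from edgeR, as for the others).

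The 4 tested genes listed for uptake and binding of heme and hemoglobin had a median log2 fold change of −0.19, with a range of −0.79 to −0.0077. Of these 4 genes, 1 was lower without overlap in CPM, where 15.2% of all tested genes were. *Cd163*, the macrophage receptor for hemoglobin bound to haptoglobin, was at 66.3 and 105 CPM in the controls and at 65.6 and 77.1 CPM in AAV-mVEGF-C (difference as log2 fold change, −0.26). *Lrp1*, a receptor for hemopexin-bound heme among many ligands, was at 643 to 819 CPM over the 4 libraries (−0.12). Of the regulators, *Bach1*, a heme-sensing repressor of *Hmox1* and the ferritin genes, was at 144 CPM in both controls and at 161 and 168 CPM in AAV-mVEGF-C (0.20, standard error 0.15). *Nfe2l2*, which encodes the activator NRF2 that competes with BACH1, overlapped between the groups (0.064), as did *Spic*, the factor of iron-recycling macrophages, which was at 1.05 to 3.87 CPM (−0.46). *Keap1*, the inhibitor of NRF2, was lower without overlap, at 34.6 and 35.4 CPM in the controls and at 27.3 and 31.8 CPM in AAV-mVEGF-C (−0.25, standard error 0.17).

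The iron regulatory proteins that bind the hairpins also showed no call. *Aco1*, which encodes IRP1, was at 22.5 and 25.3 CPM in the controls and at 18.5 and 21.9 CPM in AAV-mVEGF-C (difference as log2 fold change, −0.24), and *Ireb2*, which encodes IRP2, was at 51.0 to 59.3 CPM (−0.072). *Hamp*, the gene of hepcidin, the liver hormone that removes ferroportin from the cell surface, was not among the genes tested, with reads in 1 library only, at 0.403 CPM in AAV-CTRL 1 and at 0 in the other 3. The most positive value of the list was 0.57, for *Heph*, a ferroxidase that works with ferroportin and was at 0 to 0.989 CPM.

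**Figure D5:**
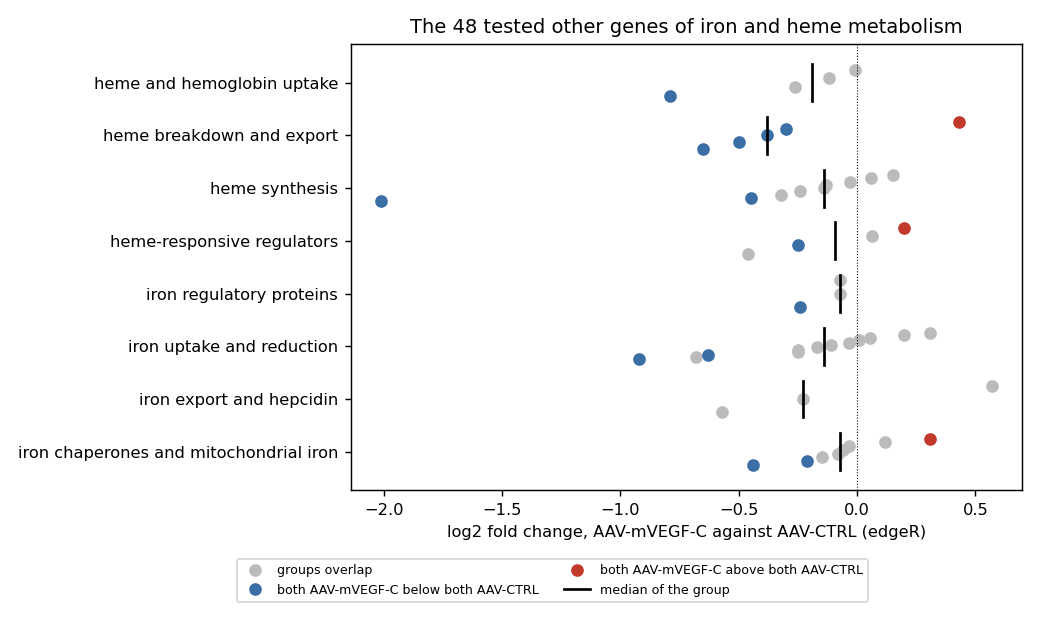
log2 fold change (horizontal axis) of the 48 tested other genes of iron and heme metabolism, in rows by role, with blue for genes lower and red for genes higher in both AAV-mVEGF-C libraries than in both controls, grey for overlap, and a bar at the median of each row. *Alas2* lies far to the left at −2.01, and the medians of all rows lie between −0.38 and −0.071.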

How the data were processed

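RNA of sorted dural CD45+ cells was sequenced as 2 AAV-CTRL and 2 AAV-mVEGF-C libraries, made with a stranded total RNA kit for picogram inputs. The authors deposited estimated counts, not normalized, of which 8.18% were not whole and which were rounded here. The authors also deposited TPM values of the same genes. The submitters' processing notes name FastQC, Trimmomatic, DRAGEN, Picard, and the build mm10, without saying which program made the counts. Each library is a pool of separate mice, and p-values measure the spread between pools.

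The main test was edgeR 4.0.16 (R 4.3.3), quasi-likelihood, with TMM scaling, filterByExpr, no covariate, and Benjamini-Hochberg adjustment over 19806 genes at 0.05. Standard errors are the log2 fold change divided by the square root of F, and 95% intervals use the t distribution with edgeR's degrees of freedom. Alternatives were DESeq2 1.42.0 (named in the paper), limma 3.58.1 with voom or on log2(TPM + 1) and log2(TPM + 0.1), other scalings and filters, a replicate block, and each library left out. The scripts were tested on simulated data. Coordinates are those of GENCODE M21, in which 54349 of 55401 identifiers occur with the same version.

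The 10 genes, the list of 55, and the marker lists were chosen with earlier results of these data known. Genes were named by rule: the 10 genes, those of the list with an unadjusted p under 0.05 and its extremes, a fixed set of regulators and receptors, *Vegfc* and *Ptprc*, ferritin copies, and the 3 genes nearest in pattern to *Hmox1* and *Slc40a1*. *Alas1*, *Flvcr1*, *Flvcr2*, *Keap1*, and *Hdac7* were named after their values were seen.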

Additional observations from a re-analysis of the deposited data

How the results depend on the processing

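No setting gave any of the 10 genes an adjusted p under 0.05. The number of all genes under that threshold was 0 in edgeR (523 unadjusted), 77 with DESeq2, 268 without a filter, 11 with the replicate block, and 54 with the crossed block, and 2 to 2058 with a library left out, where the lone library was assumed to vary like the other group. The count of the 10 with an unadjusted p under 0.05 was 0 to 4 with a library left out, 2 without AAV-CTRL 1, where 7.75% of all genes had one, and 4 without AAV-CTRL 2, where 28.9% did, and 0 in all other settings. Their median, −0.11, was −0.22 in each of the TPM fits and −0.29 to 0.14 with a library left out. It was −0.034 with limma-voom and −0.041 with the block in either pairing, where 5 of the 10 were below and 5 above 0. The median of the other iron and heme genes, −0.15, was −0.29, −0.33, and −0.26 on log2(TPM + 1), log2(TPM + 0.1), and log2(TPM + 1) without a filter, and −0.22 to −0.13 with a library left out. The count of genes without overlap, 1, was 3 without scaling factors (32.1% of all tested genes), 4 in TPM (37.4%), and 3 without AAV-CTRL 1 (chosen after seeing the data), where 66.9% of all tested genes did not overlap.

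Signs turned in the following cases, and the cause was not tested. In the 3 TPM fits, in the order above, *Hmox1* was −0.065, −0.067, and −0.065, *Slc11a1* was −0.081, −0.083, and −0.081, and *Fth1* was −0.10 in each. *Blvrb* was 0.083 with limma-voom and 0.035 with the replicate block and with the crossed block. With a library left out, the ranges were −0.49 to 0.0017 for *Slc48a1*, −0.38 to 0.56 for *Hmox1*, −0.72 to 0.84 for *Blvrb*, −0.12 to 0.23 for *Slc11a1*, −0.36 to 0.86 for *Slc11a2*, −0.11 to 0.28 for *Fth1*, and −0.37 to 0.15 for *Ftl1*. *Tfrc*, *Ncoa4*, and *Slc40a1* were negative in all 15 alternatives, at −0.48 to −0.30, −0.30 to −0.069, and −0.56 to −0.018 with a library left out.

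Deviations of same-numbered libraries from their group means correlated across genes at −0.134 on log2 CPM and at −0.0353 on log2(CPM + 1). The pairing by number is not borne out by these values, which rest on 2 libraries per group and cannot settle it. The block, in either pairing, called none of the 10 genes. At least 373 reads per library lay behind each of the 10 genes.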

Other observations

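The genes nearest to *Hmox1* in pattern over the 4 libraries, among 9336 other genes with a mean of at least 10 CPM, were *Atf3*, *Bambi*, and *Ccl4*, at distances of 0.0859, 0.120, and 0.125 in log2(CPM + 1) centered on its mean. *Atf3*, a stress-induced transcription factor, was at 238 and 450 CPM in the controls and at 272 and 434 CPM in AAV-mVEGF-C. *Ccl4*, a chemokine gene of activated macrophages, was at 36.5 and 60.8 CPM in the controls and at 40.8 and 67.3 CPM in AAV-mVEGF-C. Nearest to *Slc40a1* were *Lrp4*, *Arl6ip6*, and *Adss*, at distances of 0.0502, 0.0639, and 0.0656. The distances rest on 4 libraries and are a description only.

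The cell type lists not given above had these median log2 fold changes, none with a gene at an adjusted p under 0.05 in edgeR: 0.024 for 7 monocyte, 0.087 for 10 neutrophil, −1.44 for 10 erythroid, −0.76 for 7 B cell, 0.59 for 6 plasma cell, 0.28 for 7 T cell, −0.92 for 6 fibroblast, −0.38 for 6 endothelial, −0.18 for 4 osteoclast, and −0.24 for 6 dividing-cell genes. For the 16 macrophage markers it was −0.21. *Ahsp* is not among the gene names of the table.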
